A study of Danio rerio with 18 samples.

Results

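Muscle myosin heavy chains were followed in ribosome-bound RNA of zebrafish larvae with and without oncogenic HRasG12V in the skin. The 10 genes comprised 7 fast skeletal heavy chains (*myhz1.1*, *myhz1.2*, *myhz1.3*, *myhz2*, *myha*, *myhb* and *myhz1.1l*), 2 slow heavy chains (*smyhc1* and *smyhc2*) and 1 gene listed under the human symbol *MYH7*, out of 31953 genes in the deposited tables. They were chosen by name, at a point when HRasG12V fold changes of muscle genes in keratinocytes and macrophages of these same libraries were already known. The HRasG12V contrasts of those 2 cell types are therefore given as a description, and nothing is read from their p-values. Earlier results of the neutrophil contrast were also known then, so its tests are not independent of the choice of genes. Their identifiers were ENSDARG00000067990 (*myhz1.1*), ENSDARG00000067995 (*myhz1.2*), ENSDARG00000067997 (*myhz1.3*), ENSDARG00000012944 (*myhz2*), ENSDARG00000095930 (*myha*), ENSDARG00000001993 (*myhb*), ENSDARG00000102414 (*myhz1.1l*), ENSDARG00000099959 (*smyhc1*), ENSDARG00000103969 (*smyhc2*) and ENSDARG00000079782 (*MYH7*).

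All libraries came from larvae at 3 days post-fertilization, treated with PTU against pigment, and each was made from about 50 pooled larvae. Translating ribosome affinity purification (TRAP) pulls down ribosomes that carry a GFP-tagged L10a subunit, with the transcripts on them, so that the RNA should come mostly from the cell type whose promoter drives the tag. For keratinocyte libraries, wildtype larvae were injected with pTol2-krt4-GFP-L10a together with pTol2-krt4-RFP-HRas (HRas control) or pTol2-krt4-RFP-HRasG12V. For neutrophil and macrophage libraries, the same HRas constructs were injected into Tg(LyzC:EGFP-L10a) and Tg(mpeg1:EGFP-L10a) larvae, respectively. In every group the HRas construct was thus driven in skin by the *krt4* promoter from injected transposon DNA, and controls also overexpressed HRas. Each cell type had 3 libraries with HRas control and 3 with HRasG12V, whose replicate number equals the batch number in the labels. The study collected larvae on separate days, but the labels do not tie a batch to a day. Macrophage HRas control replicate 3 held 16990 expected counts and was left out, so that this group had 2 libraries.

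Myosin II is the motor of muscle. A pair of heavy chains carries the ATP-splitting heads and the coiled-coil tails that pack into thick filaments, and the isoform of the heavy chain largely sets how fast a fibre shortens. In zebrafish larvae, superficial slow fibres use the *smyhc* genes and the bulk of the trunk is fast fibres that use the *myhz* genes, while the heart has atrial and ventricular heavy chains of its own. In human, MYH7 is the heavy chain of slow fibres and of the ventricle, but zebrafish slow and ventricular genes have both been given that symbol, so the gene listed as *MYH7* was assigned to neither class, and no cardiac heavy chain was certain among the 10. Keratinocytes, neutrophils and macrophages move with non-muscle myosins, and skeletal heavy chains are not part of their known programmes.

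Several of these genes lie side by side. In RefSeq's GRCz12tu gene order, *myhz2*, *myhc4*, *myha*, *myhz1.3*, *myhz1.2* and *myhz1.1* are consecutive protein-coding genes, *smyhc1*, *smyhc2* and *smyhc3* are consecutive, and *myhb* and *myhz1.1l* lie elsewhere. The tandem fast chains are close copies, and the counting program divides reads that fit several genes, so the value of a single fast chain is less certain than that of their sum.

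Across the 17 libraries used, expected counts summed to 6206924 to 14781123, but the 10 most abundant features took 72.9% to 94.7% of them and left 385201 to 2577036 counts for all other genes. Values are given as CPM, that is, as counts scaled to a common library size after edgeR's TMM factors (normalised CPM). The labels were checked against markers, whose lists were summed. Summed levels of lists, here and below, cover all matched genes, also those not tested. Keratinocyte markers were highest in the keratinocyte HRas control libraries (3329 to 5530 CPM, against 845 to 1381 in neutrophil and 1218 to 1368 in macrophage controls), and macrophage markers in macrophage controls (28.1 to 61.3 CPM against at most 8.24). Neutrophil markers stood at 8.32 to 30.7 CPM in neutrophil, 3.21 to 6.04 CPM in keratinocyte and 43.4 to 63.3 CPM in macrophage controls. Their sum thus set neutrophil controls above keratinocyte but not macrophage controls. Of 7 tested, 2 were higher and 1 lower in macrophage than in neutrophil controls at an adjusted p of at most 0.05 by edgeR (1.31% of all genes passed). Skeletal muscle markers were present in every library, at 210 to 344 CPM in keratinocyte, 91.3 to 482 in neutrophil and 274 to 331 in macrophage controls.

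The order of the heavy chains was set by the fast gene *myhz1.1*. Per kilobase of effective length, the mean level over 17 libraries was 92.7 CPM per kb for *myhz1.1*, 35 for *myhz1.2*, 25.6 for the slow gene *smyhc1* and 22.1 for *myhz2*. The second slow gene *smyhc2* averaged 4.16 CPM per kb. *myhz1.3* averaged 14, *myhz1.1l* 5.44, *myhb* 3.92, *MYH7* 1.17 and *myha* 0.225 CPM per kb. *myhz1.1* made up 42.2% to 49.1% of the summed heavy chain level in every library, whatever the cell type or construct. The ranges of neighbours in this order overlapped between libraries. *smyhc1*, for example, took 9.55% to 14.9% of the sum and *myhz2* took 7.03% to 13.2%. Each gene was divided by its median effective length over the libraries, 2734 bases for *smyhc1* and 5844 for *myhz2*. The place of *smyhc1* rests on this length. In mean CPM without it, *smyhc1* had 70, below *myhz2* (129) and *myhz1.3* (82.1).

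**Figure D1:**
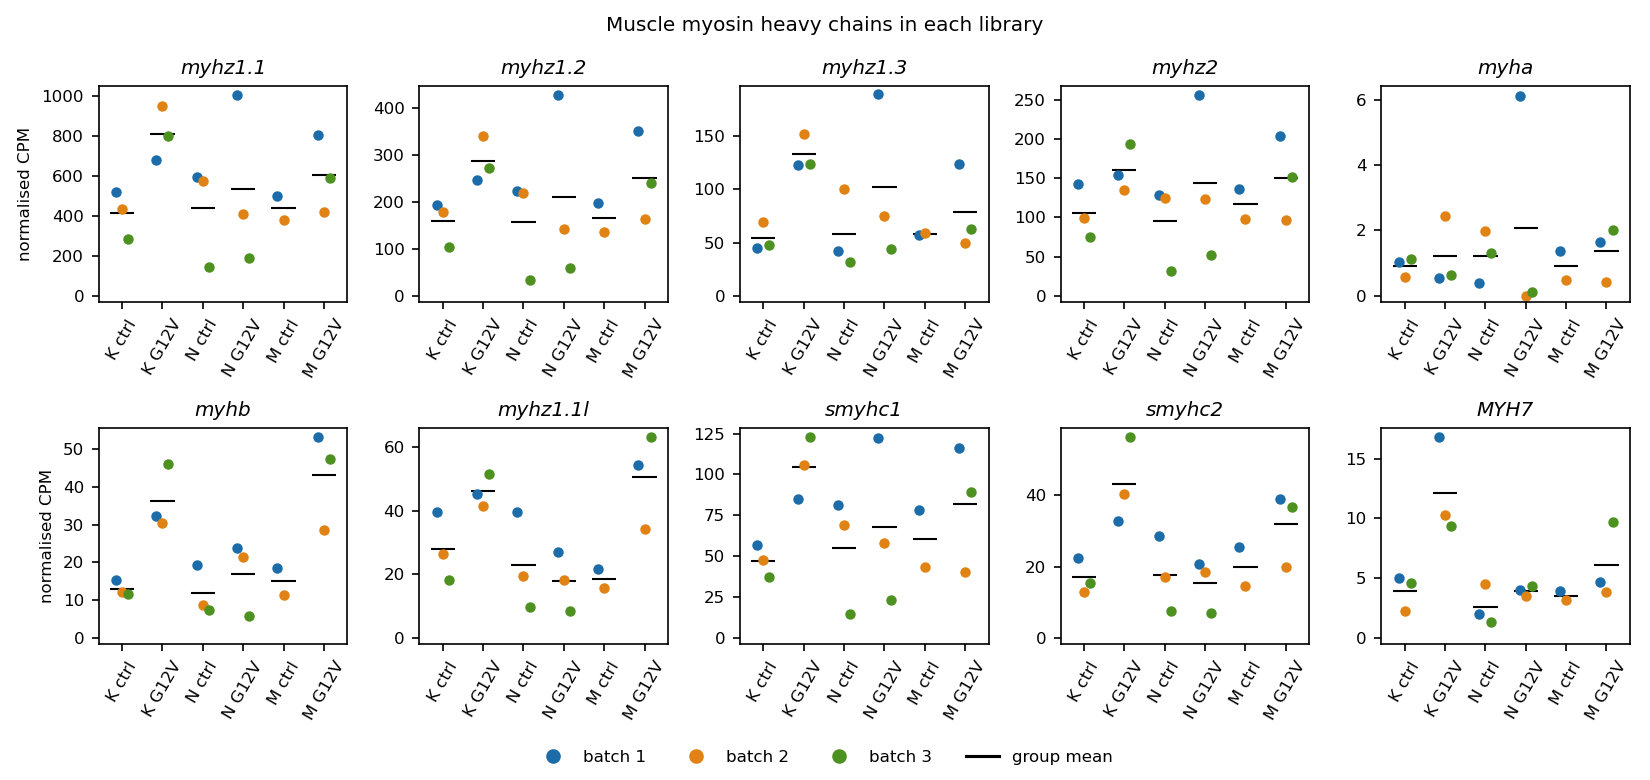
Normalised CPM of each heavy chain (vertical axes, linear, each with its own scale) in the 17 libraries, by group on the horizontal axes (K, keratinocyte; N, neutrophil; M, macrophage; ctrl, HRas control; G12V, HRasG12V). Points are libraries coloured by batch and lines are group means. For *myhz1.1*, keratinocyte HRasG12V libraries sit at 680 to 951 CPM and keratinocyte controls at 285 to 519.

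In the control libraries the ranges of each heavy chain overlapped between the 3 cell types. *myhz1.1* had 519, 438 and 285 CPM in keratinocyte, 597, 577 and 143 CPM in neutrophil and 499 and 381 CPM in macrophage controls. The neutrophil library of batch 3 was thus the lowest, and the ranges of the cell types overlapped. *smyhc1* had 56.7, 47.8 and 37.3 CPM in keratinocyte, 81.5, 68.8 and 14.6 CPM in neutrophil and 78.1 and 43.4 CPM in macrophage controls. Again the neutrophil control of batch 3 was lowest. By edgeR's quasi-likelihood test with Benjamini-Hochberg adjustment over 16011 genes, 0 of 10 heavy chains differed between neutrophil and keratinocyte controls (4.58% of all genes did), between macrophage and keratinocyte controls (1.56%) or between macrophage and neutrophil controls (1.31%). At an unadjusted p under 0.05 the count was also 0 in each of the 3 comparisons, beside 2822, 1633 and 1653 of the 16011 genes. Their median log2 differences were −0.10, −0.13 and −0.05, against −0.26, −0.33 and 0.19 for the 6 non-muscle and smooth muscle heavy chains. The widest difference in a heavy chain other than the scarce *myha* was that of *myhz1.1l*, macrophage minus keratinocyte, at −0.69 (SE 0.366, adjusted p = 0.546). Standard errors of the heavy chains ran from 0.319 to 1.28 over these comparisons, so a lack of calls does not show that the levels were equal. These comparisons use the same control libraries as the HRasG12V contrasts.

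In keratinocyte libraries, all 10 heavy chains had a positive fold change with HRasG12V, with a median log2 fold change of 1.18 (range 0.30 to 1.60) against 0.01 over all genes tested. As these are bulk pull-downs, more cells of a type, more RNA per cell and more RNA from untagged cells cannot be told apart. This holds here and in any comparison below. For 8 of 10, every HRasG12V library lay above every control library, which held for 6.75% of all genes. The exceptions were *myhz2* and *myha*. At an adjusted p of at most 0.05, 1 of 10 was called (*myhb*), beside 0.262% of all genes, and nothing is read from this count, since the members were chosen with this contrast known.

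Among the fast chains, *myhz1.1* had 519, 438 and 285 CPM in keratinocyte controls and 680, 951 and 804 CPM with HRasG12V in batches 1, 2 and 3. The groups did not overlap, and the means were 414 ± 119 and 812 ± 135 CPM (SD, n = 3 each), with a fitted log2 fold change of 1.09 (SE 0.349). *myhz1.2*, its neighbour, had 192, 179 and 104 CPM in controls and 246, 340 and 272 CPM with HRasG12V, a log2 fold change of 0.99 (SE 0.388). *myhz1.3* had 44.6, 69.3 and 48 CPM against 123, 152 and 124 CPM. These 3 tandem genes thus separated in the same direction, and *myhz1.3* had the largest log2 fold change of the 3, at 1.31 (SE 0.353). *myhz2*, at the other end of the tandem array, had 143, 98.7 and 74.4 CPM in controls and 154, 135 and 193 CPM with HRasG12V. Its groups overlapped, since the control of batch 1 lay above the HRasG12V library of batch 2, and its log2 fold change was 0.75 (SE 0.343).

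*myhb*, a fast chain outside the tandem array, had 15.4, 12.2 and 11.6 CPM in keratinocyte controls and 32.3, 30.4 and 46 CPM with HRasG12V. Within batches 1, 2 and 3 the log2 ratios were 1.06, 1.32 and 1.99, and the fitted log2 fold change was 1.54 (SE 0.344, adjusted p = 0.0376 by edgeR). This call ended when any 1 keratinocyte control (adjusted p = 0.31, 0.235 and 0.187 without replicates 1, 2 and 3), keratinocyte HRasG12V replicate 2 (0.0796) or 3 (0.312), or macrophage HRasG12V replicate 1 (0.052) was left out, and without the replicate block (0.172). *myhz1.1l* had 39.8, 26.3 and 18.1 CPM in controls and 45.2, 41.7 and 51.8 CPM with HRasG12V. Its HRasG12V libraries were close together and its controls spread, with a log2 fold change of 0.83 (SE 0.319). *myha* held 0.566 to 1.12 CPM in controls and 0.563 to 2.44 CPM with HRasG12V, too few reads for a direction (log2 0.30, SE 1.18). Its value turned to −0.89 without keratinocyte HRasG12V replicate 2.

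The slow chains had fold changes within the range of the fast ones. *smyhc1*, the main slow heavy chain here, had 56.7, 47.8 and 37.3 CPM in keratinocyte controls and 85.1, 106 and 123 CPM with HRasG12V. Its log2 fold change was 1.26 (SE 0.386). *smyhc2* had 22.5, 13 and 15.4 CPM against 32.8, 40.5 and 56.4 CPM, with a log2 fold change of 1.44 (SE 0.345). In both genes the groups were apart and the HRasG12V library of batch 3 was highest. *MYH7* had 5, 2.26 and 4.61 CPM in controls and 16.8, 10.3 and 9.33 CPM with HRasG12V, the largest fitted change of the 10 at 1.60 (SE 0.435). It rested on few reads, 8.45 to 33.04 expected counts in the controls. No test of slow against fast chains was made.

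**Figure D2:**
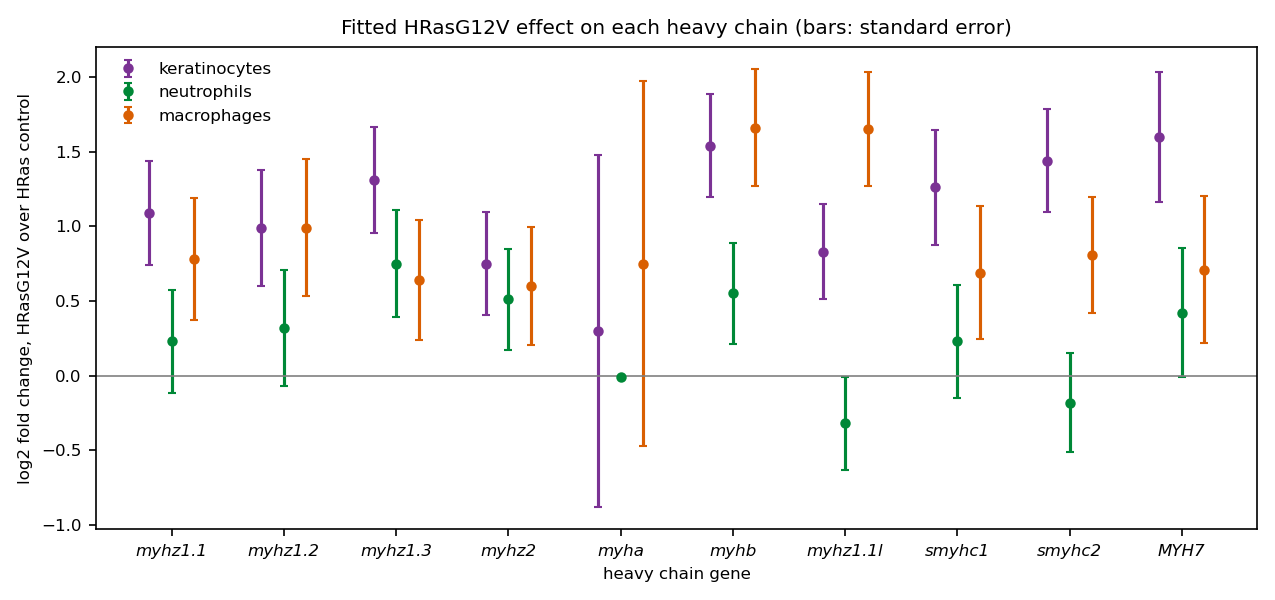
Fitted log2 fold change of HRasG12V over HRas control (vertical axis) for each heavy chain (horizontal axis) in keratinocytes, neutrophils and macrophages, with bars of 1 standard error. All keratinocyte and macrophage values lie above 0, and neutrophil values run from −0.32 to 0.75; *myha* in neutrophils is drawn without a bar, because the standard error is the fold change divided by the root of the F value, and both are near 0 there.

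In neutrophil libraries of larvae with HRasG12V in the skin, the heavy chains were spread around a small median of 0.28 (range −0.32 to 0.75), with 7 of 10 positive. By edgeR's quasi-likelihood test 0 of 10 passed (0.15% of all genes did), and none was called by DESeq2. In edgeR 1 of 10 had an unadjusted p under 0.05 (*myhz1.3*, adjusted p = 0.691), beside 1119 of all 16011 genes. For 0 of 10 was every HRasG12V library above every control, as 7.71% of all genes were. The control libraries are shared with the baseline comparisons above. Earlier results of this contrast were known when the genes were chosen, so these tests are not independent of that choice.

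*myhz1.1* had 597, 577 and 143 CPM in neutrophil controls and 1009, 413 and 192 CPM with HRasG12V. Both libraries of batch 3 were the lowest of their groups, and the groups overlapped. Its log2 fold change was 0.23 (SE 0.346, adjusted p = 0.965 by edgeR). *smyhc1* followed the same course, with 81.5, 68.8 and 14.6 CPM against 122, 57.8 and 23.2 CPM and a log2 fold change of 0.23 (SE 0.377, adjusted p = 0.967). The direction of these values hung on single libraries. Without neutrophil HRasG12V replicate 1 the log2 fold change was −0.32 for *myhz1.1*, −0.37 for *myhz1.2* and −0.20 for *smyhc1*, and without neutrophil HRas control replicate 3 it was −0.13, −0.12 and −0.19. *myhz1.3* ran from 41.7, 100 and 32.2 CPM to 189, 74.5 and 44.3 CPM, higher in 2 of 3 batches.

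*myhz1.1l* was the only heavy chain lower with HRasG12V in all 3 batches in neutrophil libraries, with 39.8, 19.4 and 9.62 CPM in controls and 27, 18.3 and 8.64 CPM with HRasG12V. The step was larger in batch 1 than in the other batches, and the groups overlapped. Its log2 fold change was −0.32 (SE 0.314, adjusted p = 0.939 by edgeR) and turned to 0.06 without neutrophil HRas control replicate 1. *smyhc2* had 28.5, 17.2 and 7.54 CPM in neutrophil controls and 20.8, 18.4 and 7.04 CPM with HRasG12V. It was lower in 2 of 3 batches, with a log2 fold change of −0.18 (SE 0.334). *myhb* had 19.2, 8.84 and 7.28 CPM against 23.9, 21.3 and 5.68 CPM, a log2 fold change of 0.55 (SE 0.335).

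In macrophage libraries all 10 heavy chains had a positive fitted fold change, with a median log2 of 0.77 (range 0.60 to 1.66) against 0.03 over all genes. No gene at all was called in this contrast by edgeR (0% of 16011 genes, with 484 at an unadjusted p under 0.05, 4 of them heavy chains, and 1 gene called by DESeq2). Only 2 controls entered it.

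The 2 largest of the 10 fitted values were those of *myhb* and *myhz1.1l*. *myhb* had 18.6 and 11.3 CPM in macrophage controls and 53.2, 28.7 and 47.5 CPM with HRasG12V. *myhz1.1l* had 21.8 and 15.6 CPM against 54.6, 34.2 and 63.4 CPM. These were the 2 of 10 heavy chains in which every HRasG12V library lay above every control, as in 9.58% of all genes. Their log2 fold changes were 1.66 (SE 0.393) and 1.65 (SE 0.379). In a fit of the 5 macrophage libraries alone, which leaves 1 residual degree of freedom, both were called by edgeR, with log2 fold changes of 1.44 and 1.24, as were 249 genes in all, and nothing is read from this. The other chains overlapped between groups. *myhz1.1* had 499 and 381 CPM in controls and 809, 423 and 592 CPM with HRasG12V, a log2 fold change of 0.78 (SE 0.408). *smyhc1* had 78.1 and 43.4 CPM against 116, 40.2 and 89.3 CPM, with the HRasG12V library of batch 2 the lowest of all 5.

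The difference of the HRasG12V effect between cell types was fitted as a contrast of its own. At the same threshold 0 of 10 heavy chains were called for keratinocytes minus neutrophils, keratinocytes minus macrophages or macrophages minus neutrophils, and 2 genes (0.0125%) were called in each over all genes. At an unadjusted p under 0.05 the counts of heavy chains were 3, 0 and 2, beside 836, 589 and 586 of all 16011 genes. DESeq2 called 0 heavy chains in each. For keratinocytes minus neutrophils, *smyhc2* had the largest difference, at 1.62 (SE 0.478, adjusted p = 0.51 by edgeR). For macrophages minus neutrophils, *myhz1.1l* had 1.97 (SE 0.488, adjusted p = 0.272). Both were called when all genes with at least 1 count were tested. Over all genes, at most 54 and 40 were called for these 2 differences under the alternative settings, and nothing is read from the 2 calls. These differences share libraries with the contrasts that were known when the genes were chosen.

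The ratios were also taken within each batch. In normalised CPM, 9, 10 and 9 of 10 heavy chains were higher with HRasG12V in keratinocytes in batches 1, 2 and 3, with median log2 ratios of 0.47, 1.13 and 1.44. In neutrophils, 8 of 10 were higher in batch 1, 2 of the 9 with a ratio in batch 2 and 6 of 10 in batch 3, with medians of 0.84, −0.25 and 0.45. In macrophages, 10 of 10 were higher in batch 1 and 6 of 10 in batch 2, with medians of 0.66 and 0.21. Each batch holds 1 library per group, so batch and library cannot be told apart.

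The deposited TPM gave other medians in every batch, and in neutrophils of batch 2 the median changed sign. By TPM, 9 of 9 heavy chains with a ratio were higher with HRasG12V in neutrophils of batch 2 (median log2 0.99). *myha*, without a ratio there, went from 0.19 TPM in the control to 0 with HRasG12V. In macrophages of batch 2, 10 of 10 were higher (median 1.66). TPM divides by the sum over all features, and in batch 2 the 10 most abundant features took 89.4% of counts in the neutrophil control against 80.5% with HRasG12V, and 87.6% against 72.9% in the macrophage libraries. Their part in the TPM ratios was not tested. In keratinocytes 9, 8 and 10 of 10 chains were higher by TPM in batches 1, 2 and 3.

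**Figure D3:**
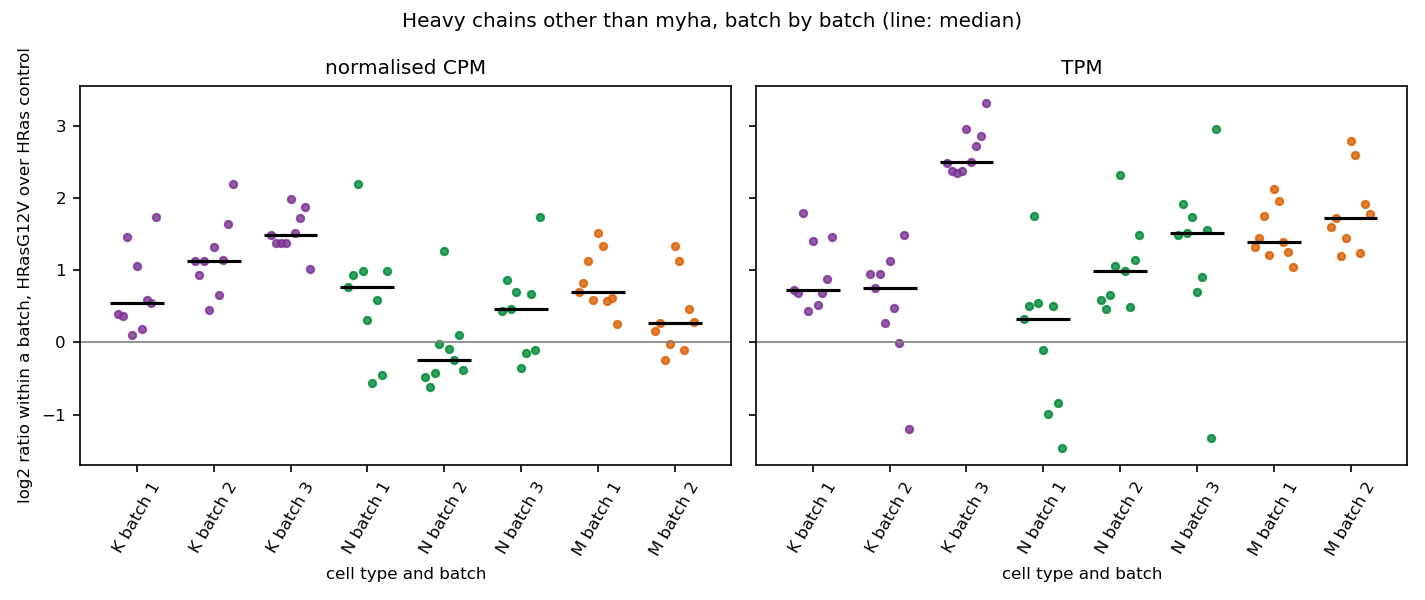
Log2 ratio of HRasG12V over HRas control within each batch (vertical axis) by cell type and batch (horizontal axis), in normalised CPM (left) and in deposited TPM (right). Points are the heavy chains other than *myha* and lines their medians. By CPM the neutrophil points of batch 2 lie mostly below 0, while by TPM they lie above it.

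The slow chains were also affected by their effective length, which the counting program sets from the transcripts it assigns reads to. It ranged from 1786 to 3530 bases for *smyhc1*, from 1237 to 5875 bases for *smyhc2* and from 693 to 5916 bases for *MYH7* over the 17 libraries, with 6, 6 and 7 transcripts listed, and by at most 1.01-fold for the fast chains. TPM of these genes moves with it, and their CPM per kb rest on its median. In batch 2 in keratinocytes, *MYH7* had 8.45 expected counts and 1.01 TPM in the control and 33.53 expected counts and 0.44 TPM with HRasG12V, so that TPM and CPM pointed in opposite directions. In the same batch *smyhc1* had 7.84 TPM in the control and 7.8 TPM with HRasG12V, where CPM were 47.8 and 106. In the macrophage control that was left out, 1 expected count of *smyhc1* gave 52.1 TPM, above its TPM in every other library.

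The slow share, *smyhc1* plus *smyhc2* of the summed CPM per kb, was 13.1%, 12.3% and 14.9% in keratinocyte controls and 14.2%, 13.9% and 17.6% with HRasG12V. It was thus higher with HRasG12V in each of the 3 batches of keratinocytes, while the groups overlapped. Over all 17 libraries it ran from 11.8% to 17.6%, and the groups overlapped in neutrophils and macrophages too. The size of the share rests on the median effective length of 2734 bases used for *smyhc1*. The summed level in the same libraries was 188, 160 and 109 CPM per kb in keratinocyte controls and 258, 328 and 310 with HRasG12V. It spanned 50.8 to 378 CPM per kb over all libraries, both extremes being neutrophil libraries.

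Within the fast chains, *myhb* and *myhz1.1l* took a larger part of the pool in macrophage HRasG12V libraries. Per 100 of *myhz1.1*, *myhb* stood at 3.74 and 2.98 in macrophage controls and at 6.59, 6.8 and 8.03 with HRasG12V. *myhz1.1l* stood at 4.45 and 4.17 in macrophage controls and at 6.89, 8.23 and 10.9 with HRasG12V. These groups were apart. In keratinocytes and in neutrophils the ratio of *myhz1.1l* was higher with HRasG12V in 1 of 3 batches each, with 7.82, 6.13 and 6.49 in keratinocyte controls against 6.78, 4.47 and 6.57, and 6.8, 3.44 and 6.87 against 2.73, 4.53 and 4.6 in neutrophils. Its ratio in keratinocyte controls overlapped that of macrophage HRasG12V libraries. In keratinocytes *myhb* stood at 2.98, 2.78 and 4.07 per 100 in controls and at 4.75, 3.21 and 5.73 with HRasG12V, higher in each batch but overlapping between groups. In neutrophils it stood at 3.22, 1.54 and 5.11 against 2.37, 5.17 and 2.97, with no common direction. These ratios come from the contrasts used in the choice of genes and carry no test.

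**Figure D4:**
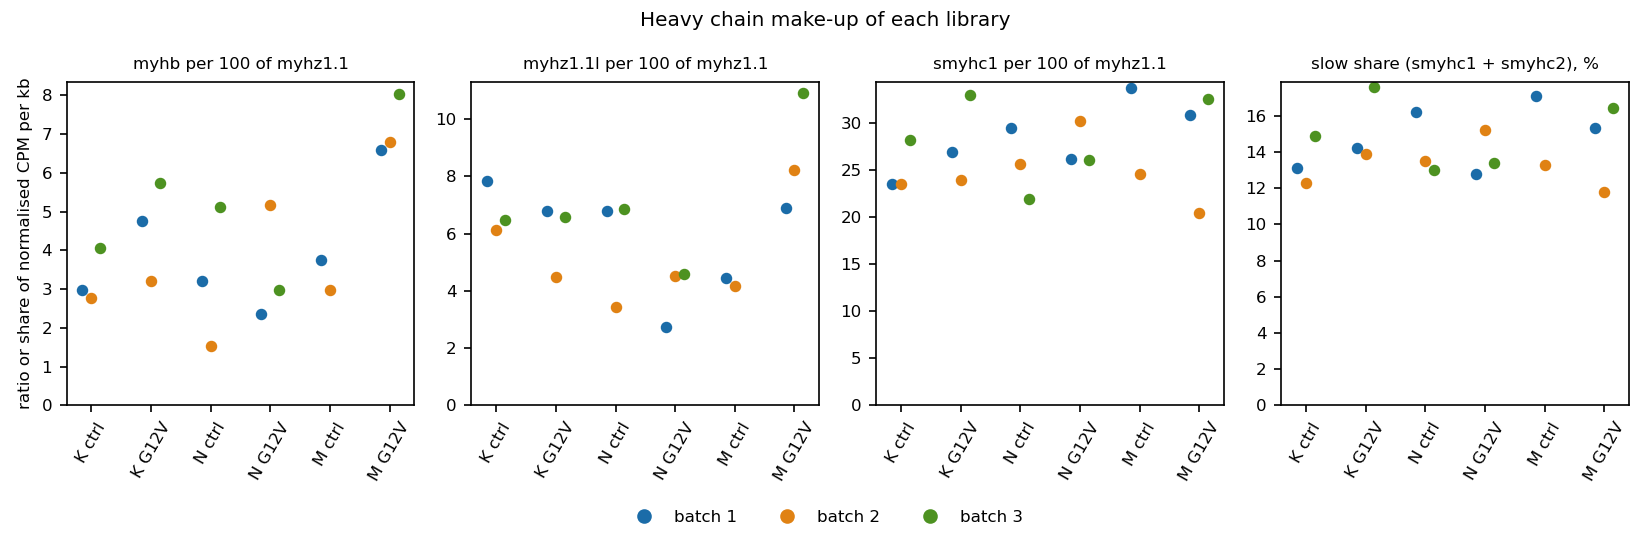
Level of *myhb*, *myhz1.1l* and *smyhc1* per 100 of *myhz1.1*, and the share of slow chains in percent (vertical axes, from normalised CPM per kb), in each library by group, coloured by batch (K, N and M as keratinocyte, neutrophil and macrophage; ctrl, HRas control; G12V, HRasG12V). The 3 macrophage HRasG12V libraries hold the highest *myhb* ratios, 6.59 to 8.03, and the slow share stays between 11.8% and 17.6%.

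With the 7 fast chains and *myhc4*, a further gene of the tandem array, added into 1 feature, the division of reads among these 8 genes drops out, though reads shared with chains outside the sum are still divided. The sum was 965, 829 and 552 CPM in keratinocyte controls and 1289, 1668 and 1514 CPM with HRasG12V, with a log2 fold change of 1.05 (SE 0.357). It was 1064, 1061 and 260 CPM in neutrophil controls and 1962, 799 and 364 CPM with HRasG12V, with 0.32 (SE 0.355, adjusted p = 0.947 by edgeR). In macrophages it was 937 and 708 CPM against 1608, 804 and 1170 CPM, with 0.84 (SE 0.419). The keratinocyte groups stayed apart and the others overlapped, as for *myhz1.1*.

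Other myosin heavy chains did not share 1 direction. Of 10 further striated heavy chain symbols, 4 were matched and tested, and 0 were called in any cell type. Their median log2 fold changes were 0.26, −0.11 and 0.20 in keratinocytes, neutrophils and macrophages. These 4 do not include a second gene listed as *MYH6* (ENSDARG00000079564). It averaged 26.1 CPM over the 17 libraries, against 15.9 CPM for *myh7bb*, the most abundant of the 4. Its HRasG12V fold change is not given here, so the medians do not cover it. The gene listed as *myh6* (ENSDARG00000090637), the atrial heavy chain, had 1.04, 2.26 and 4.61 CPM in keratinocyte controls and 1.55, 1.83 and 5.47 CPM with HRasG12V, a log2 fold change of 0.19 (SE 0.608). Its groups overlapped. *myhc4* had 9.59, 5.94 and 8.65 CPM against 8.59, 16.4 and 21 CPM, and *myh7bb* had a log2 fold change of 0.33 (SE 0.284). *myh7ba* went the other way, with 9.17, 3.11 and 5.58 CPM in keratinocyte controls and 0.845, 0.609 and 1.68 CPM with HRasG12V. Every HRasG12V library lay below every control, and its log2 fold change of −2.35 (SE 0.651, adjusted p = 0.196 by edgeR) was larger in size than that of any of the 10 heavy chains. This value rested on few reads, at a mean of 2.88 CPM. The share of all genes that lay below every control was not counted. The 6 non-muscle and smooth muscle heavy chains were present at 800 to 1105 summed CPM in keratinocyte controls and 867 to 1018 with HRasG12V. Their median log2 fold change was 0.08 in keratinocytes against 0.32 and 0.52 in neutrophils and macrophages, and 0 were called in each. All 6 were positive in neutrophils, where their median was above the 0.28 of the muscle heavy chains, and all 6 in macrophages, where it was below the 0.77. The most abundant, listed as *MYH9* (ENSDARG00000001014), had 0.15 (SE 0.26).

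Partners of the heavy chains in the sarcomere are given as background for keratinocytes. Their lists were written with this contrast known, so their counts are a description and support nothing. Of 20 thin filament and Z-disc genes tested, 10 were called higher and 0 lower (0.262% of all genes were called), with a median log2 fold change of 1.90, above the 1.18 of the heavy chains. Among them the tropomyosin *tpma* had 1.94 (SE 0.307), the actin *actc1b* 1.97 (SE 0.308) and the more abundant gene listed as *TNNT3*, a fast troponin T, 2.01 (SE 0.296). Of 9 skeletal muscle markers, 7 were called higher, with a median of 2.01, and 5 of the 9 are also in the thin filament list. Their summed level went from 210 to 344 CPM in controls to 872 to 1355 CPM with HRasG12V. Without keratinocyte HRas control replicate 2, 4 of these markers were called. Of 10 thick filament and M-band partners, 3 were called higher: *mybphb* and *mybpc2b*, myosin binding proteins, with 1.76 (SE 0.372) and 2.27 (SE 0.514), and the myomesin listed as *MYOM2* with 1.56 (SE 0.344). Without the replicate block, 0 thick filament genes, 8 thin filament genes and 6 muscle markers were called.

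The list of myosin chaperones and assembly factors, which fold the motor and place it in filaments, also held the murf genes *trim63a* and *trim63b*. Its median log2 fold change in keratinocytes was 0.80 over 7 genes tested, with 5 positive and 0 called. The negative values were those of *trim63a* (−0.64) and *trim63b* (−0.20). The most abundant gene of the list, *hsp90aa1.1*, had 1.70 (SE 0.689) at a mean of 6.21 CPM. The gene listed as *SMYD1*, a methyltransferase needed for thick filament assembly, had 2.21 (SE 0.623, adjusted p = 0.213 by edgeR) at a mean of 2.68 CPM. Fibre type and myogenic regulators, such as *MEF2D*, *SOX6* and *MEF2C*, had a median of 0.34 over 10 genes tested, with 0 called. *SOX6*, a repressor of slow genes in fast fibres, had 0.01 (SE 0.271). Of 5 cardiac genes tested, 0 were called, with values from 0.19 to 2.04. Their median of 1.96 was the value of *gata4* (SE 1.12), at a mean of 1.14 CPM. All 11 matched cardiac genes, tested or not, summed to 2.55 to 8.52 CPM in keratinocyte controls, where 4 were at 0. With HRasG12V the sum was 10.7 to 13.4 CPM, so these values rest on few reads. In neutrophils and macrophages 0 genes of these muscle lists were called by edgeR over 16011 genes. With macrophage libraries alone, 5 thin filament genes and 4 muscle markers were called in macrophages, and with all genes of at least 1 count, 1 and 2 were called in neutrophils.

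The heavy chains are long transcripts, and length moved with the fold change. Median log2 fold changes in keratinocytes were 0.16 in the shortest of 4 equal groups of genes by effective length and −0.08 in the longest. The heavy chains had a median effective length of 5852 bases and thin filament genes of 1250 bases. The part of length in the gap between their medians was not tested.

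**Figure D5:**
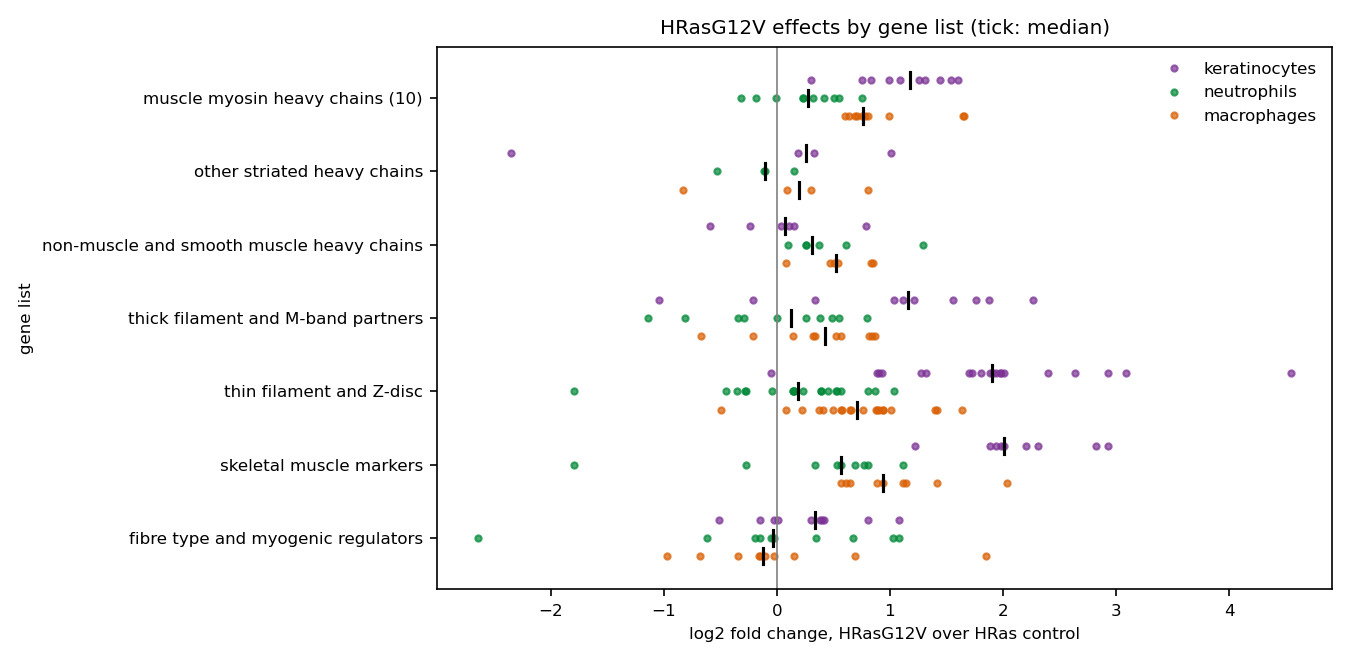
Log2 fold change of HRasG12V over HRas control (horizontal axis) for the tested genes of each list (vertical axis) in keratinocytes, neutrophils and macrophages, with a tick at each median. In keratinocytes the median is 1.18 for the heavy chains, 1.90 for thin filament and Z-disc genes and 0.08 for non-muscle and smooth muscle heavy chains.

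Marker lists of other cell types are given beside these values. In keratinocytes, neutrophil markers had a median log2 fold change of 1.42 (5 of 7 positive, 0 called), and their summed level was 3.21 to 6.04 CPM in controls and 10.7 to 14.9 CPM with HRasG12V. The other marker lists there had medians of 0.56 (erythroid), 0.23 (liver and gut), 0.11 (macrophage), −0.02 (neuron), −0.03 (keratinocyte), −0.18 (lens) and −0.62 (photoreceptor). In neutrophils, 3 of 7 neutrophil markers were called higher (median 1.81) and 5 of 6 photoreceptor markers lower (median −2.43), while skeletal muscle markers had a median of 0.57 with 0 of 9 called. Medians of the remaining lists in neutrophils were 0.98 (erythroid), 0.68 (lens), 0.42 (liver and gut), 0.15 (keratinocyte), −0.06 (neuron) and −0.15 (macrophage). In macrophages, keratinocyte markers had a median of 0.58 with 0 of 10 called, and their summed level went from 1218 to 1368 CPM in controls to 1996 to 2653 CPM with HRasG12V. In macrophages, neutrophil markers had a median of 1.05 (7 of 7 positive, 43.4 to 63.3 CPM in controls and 45.9 to 78.1 CPM with HRasG12V) and liver and gut markers of 0.85 (4 of 4 positive, 27.6 to 32.4 CPM in controls and 44.6 to 52.8 CPM with HRasG12V), both above the 0.77 of the heavy chains, with 0 called. Below the heavy chains in macrophages were the medians of macrophage (0.61), lens (0.43), photoreceptor (0.29), erythroid (0.22) and neuron markers (0.11). The part of these lists in the heavy chain values was not tested.

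Over the 17 libraries the genes most like the summed fast chains, by Pearson's r of log2(CPM + 0.5), were those listed as *NEB*, the giant thin filament protein nebulin (r = 0.90), *myhc4* (0.89), *actn3a*, a Z-disc actinin (0.89), *MYL11*, a fast regulatory light chain (0.89), and *MYOM1*, an M-band protein (0.89). The sum used here held the 7 fast chains, *myha* among them, and not *myhc4*. *smyhc1* itself had r = 0.98 with the sum. The genes outside the 10 most like *smyhc1* were ENSDARG00000099115, which has no symbol (0.89), *myhc4* (0.87), the gene listed as *MYH6* with the identifier ENSDARG00000079564 (0.86), *MYOM1* (0.86) and *MYL11* (0.85). *MYH7* (0.57) and *myha* (0.47) were least like the summed fast chains among the 10. The points share library and batch, and the correlations are a description.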

How the data were processed

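TRAP libraries were amplified with a single-cell kit and sequenced as single-end reads without molecular identifiers. Per the labels and the study's methods, the authors aligned them to GRCz10 with Bowtie 1.1.1 and quantified 31953 genes with RSEM 1.2.20. The annotation release is not given in the sources used here. The authors deposited expected counts, not normalised and not whole because RSEM divides shared reads among genes, together with TPM and FPKM for the same genes. TPM was used for comparison and FPKM was not used.

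Expected counts were rounded and fitted in edgeR 4.0.16 (R 4.3.3) with TMM factors. edgeR's filterByExpr kept 16011 genes, all 10 heavy chains among them. One quasi-likelihood model held the 6 groups and the replicate (batch), as in the study's design. P-values were adjusted by Benjamini-Hochberg across the 16011 genes, and genes at 0.05 or less were called. Fold changes use a prior count of 0.125, and the standard error is the log2 fold change divided by the square root of F. The model was tested on simulated data. The replicate number is the batch label. Deviations from the group mean had r of −0.0661 to 0.327 between libraries of 1 cell type and batch, over 4543 genes. Replicates are pools of larvae of separate batches. The p-values rest on the spread between pools that is left after the replicate term, estimated over all groups together, which sets the precision.

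The 10 genes and all lists were chosen with earlier results of these data known. The text names the 10 genes, up to 3 genes per list by mean CPM, and the 5 genes most like the summed fast chains and *smyhc1*. The called thick filament genes *mybpc2b* and *MYOM2*, and *myh6*, *trim63a* and *trim63b*, were named after their values were seen. List symbols were matched exactly, then ignoring case, then by the human stem symbol, a step chosen after seeing which names the table held. Macrophage HRas control replicate 3 was left out. Alternatives were other size factors (DESeq2 1.42.0 or library size only), 2 other filters, DESeq2's Wald test, no replicate block, all 18 libraries, the fast chains added together, the 10 most abundant features of each library removed, single cell types and each library left out. Sequences were not used here.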

Additional observations from a re-analysis of the deposited data

Results flagged for a closer look

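*myhz1.1l* was higher with HRasG12V in all 3 batches of keratinocytes and both batches of macrophages that have a control, and lower in all 3 batches of neutrophils, where the log2 ratios were −0.56, −0.09 and −0.15. Its neutrophil value turned to 0.06 without HRas control replicate 1. The difference of its log2 fold change was 1.15 for keratinocytes minus neutrophils (SE 0.447, adjusted p = 0.904 by edgeR). For macrophages minus neutrophils it was 1.97 (SE 0.488, adjusted p = 0.272), and neither difference was called. The gene was flagged by its directions in these same libraries, so these values are a description. By TPM, *myhz1.1l* was higher with HRasG12V in neutrophils in batches 2 and 3. The macrophage control that entered no comparison held 20 expected counts of the 10 heavy chains, of 16990 in all.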

How the results depend on the processing

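Of 10 heavy chains, 1 was called for HRasG12V in keratinocytes. The count was 0 with library size only, 0 with genes of a mean of at least 50 counts (9 heavy chains tested), 0 without the replicate block, 2 with DESeq2, 4 with keratinocyte libraries only and 7 when all genes with at least 1 count were tested. With the fast chains added into 1 feature, *myhb* was not tested by itself, and 0 of the other 3 heavy chains and not the sum were called. The count of 10 ran from 0 to 3 with each library left out. The filter of at least 1 count and the fit by cell type each also called 2 in macrophages, and that filter called 1 each in the keratinocytes minus neutrophils and macrophages minus neutrophils differences. The cause was not tested. Where a macrophage control was left out, the lone one is assumed to vary like the other groups. Over all genes, 42, 24 and 0 were called in keratinocytes, neutrophils and macrophages, and 20 to 94, 1 to 112 and 0 to 249 under the alternatives. For keratinocytes minus neutrophils and macrophages minus neutrophils, 2 genes each were called, and at most 54 and 40 under the alternatives. The replicate block changed no other call of a heavy chain.

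With library size only, the median of all genes moved to 0.39, 0.49 and 0.76, and the heavy chains' median stood above it by 1.24, 0.09 and 0.61. The baseline medians of the heavy chains moved to 0.55, 0.62 and 0.08 there, with 0 called.

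No macrophage value of a heavy chain changed sign under these alternatives. In neutrophils *myhz1.1l* and *smyhc2* became 0.06 and 0.26 with library size only. *myha* became 0.24 there, 0.00 with all genes of at least 1 count, 0.74 without the block and 0.01 without the most abundant features. With each library left out, neutrophil values ran from −0.32 to 0.60 for *myhz1.1*, −0.37 to 0.82 for *myhz1.2*, −0.20 to 0.68 for *smyhc1*, −0.55 to 0.15 for *smyhc2*, −0.62 to 0.06 for *myhz1.1l* and −4.61 to 1.12 for *myha*, and from −0.89 to 1.03 for *myha* in keratinocytes. Depth limits *myha* and *MYH7*, with 210 and 909 expected counts over 17 libraries.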
